A study of Homo sapiens with 9 samples.

Results

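The genes examined here encode 9 subunits of Polycomb repressive complex 1 (PRC1). They were the E3 ligase genes RING1 and RNF2, the PCGF genes BMI1 and PCGF1, the chromobox genes CBX2, CBX7 and CBX8, and the polyhomeotic genes PHC1 and PHC2. They were picked by gene symbol out of 25680 symbols, and each was represented by the RefSeq transcript with the highest total count. A filter on low counts left 14199 genes for testing, which included 8 of the 9 PRC1 genes and left out RING1. The RNA came from SKNO-1, a myeloid leukaemia line grown with GM-CSF, and every sample carried its AML1-ETO (RUNX1-RUNX1T1) fusion. Of 9 RNA-seq libraries, 3 were controls labelled EV, an abbreviation the labels do not explain (called shControl here after the control shRNA that the study describes), 3 carried shRNA number 2 against ASXL2 (shASXL2-2) and 3 carried shRNA number 3 (shASXL2-3). ASXL2 encodes a Polycomb-associated protein that is a cofactor of the deubiquitinase BAP1, and the comparison addresses what its loss does to transcription in AML1-ETO leukaemia. The study describes biological triplicates, the labels number the samples 1, 13 and 25 in each group, and the time from shRNA delivery to harvest is not given in the sources used here.

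PRC1 compacts chromatin and places monoubiquitin on histone H2A. Each complex joins a RING1 or RNF2 ligase to a PCGF protein. In canonical complexes a CBX protein reads the trimethyl mark that Polycomb repressive complex 2 leaves on histone H3, and a PHC protein links complexes to each other, whereas variant complexes carry RYBP or YAF2 in place of CBX. In blood formation BMI1 is known for stem cell self-renewal, and exchange between CBX7, CBX8 and other CBX proteins accompanies differentiation. BAP1, with an ASXL partner, removes the mark that PRC1 places.

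Libraries held 27714431 to 35406063 counts with 1 transcript per gene, so 3 counts corresponded to 0.0825 to 0.109 CPM (the usual count scaled by effective library size). ASXL2 itself was lower on the log2 scale by -1.03 (SE 0.16) for shASXL2-2 and by -1.12 (SE 0.16) for shASXL2-3. These had edgeR adjusted p values of 0.808 and 0.612, and of 0.0047 and 0.0041 when the replicate number was a block. The myeloid markers KIT, CD33, MPO, SPI1 and RUNX1T1 were present, with MPO at 6366 to 10240 CPM, whereas CD34 was at 0.068 to 0.309 CPM. The 5 markers of other cell types (EPCAM, KRT19, COL1A1, CD3E and ALB) reached at most 0.204 CPM. The shASXL2-3 sample numbered 1 stood apart from its group, with a chi-square of the counts per degree of freedom of 126 and 136 against 18.6 to 56.4 in all other pairs within a group. The CBX2 and PCGF1 fold changes and the RNF2 difference between the shRNAs are given with and without it. Other values include it unless stated. In bulk RNA, fewer cells of a kind and less RNA per cell cannot be told apart.

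Per kilobase of transcript, BMI1 had the highest signal of the 9 genes in shControl, and CBX7 and RING1 were at the limit of detection. The BMI1 signal includes readthrough RNA that cannot be told apart from it, and RING1 lies in a stretch of low counts. Both limits are described below. BMI1 stood at 61.5 ± 3.76 CPM per kilobase (SD, n = 3) and CBX2 at 23.6 ± 1.38 CPM per kilobase. PHC2 followed at 16.4 ± 2.54 and PCGF1 at 15.8 ± 0.41 CPM per kilobase, and the control samples of these neighbours overlapped. RNF2 was at 11.4 ± 0.57, PHC1 at 8.24 ± 0.30 and CBX8 at 3.63 ± 0.85 CPM per kilobase. From BMI1 down to CBX8, no other pair of neighbours in this order overlapped among the control samples. RING1 at 0.056 ± 0.023 and CBX7 at 0.050 ± 0.038 CPM per kilobase overlapped each other.

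**Figure D1:**
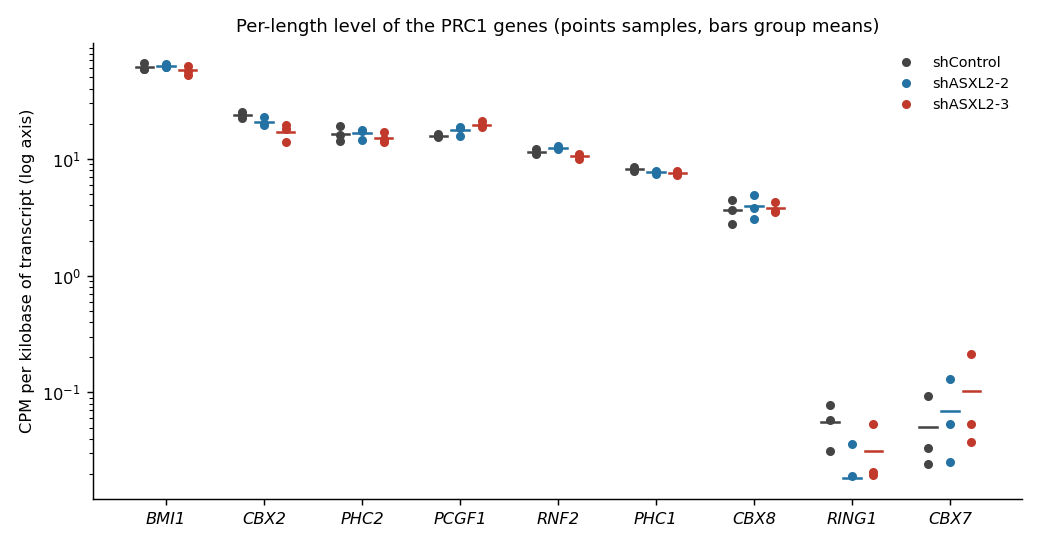
Level of each PRC1 gene in CPM per kilobase of transcript on a log axis, with points for samples, bars for group means and colours for shControl, shASXL2-2 and shASXL2-3 (n = 3 each). BMI1 lies highest at a control mean of 61.5, while RING1 and CBX7 lie at 0.056 and 0.050, and 1 shASXL2-2 sample with 0 counts of RING1 is not drawn.

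In edgeR's fits to all 9 samples after the filter on low counts, no PRC1 gene passed the threshold for either shRNA. CBX2 was called by DESeq2 with the replicate number as a block and by edgeR with the block and no filter, with values given at CBX2. Without a replicate block, 0 of the 8 tested members and 0 of all genes tested (0%) had an edgeR adjusted p under 0.05 in any of 4 contrasts, namely shASXL2-2 against shControl, shASXL2-3 against shControl, both averaged against shControl, and shASXL2-3 against shASXL2-2. In this order, an unadjusted edgeR p under 0.05 was reached by 762, 723, 942 and 293 genes and by 0, 2, 2 and 1 members. Without a block DESeq2 called 25, 26, 56 and 11 genes and no member. In the paired fit, where the replicate number was a block, edgeR called 0.282% of genes with shASXL2-2, 0.416% with shASXL2-3, 1.1% for the mean of both and 0.106% between the shRNAs, and again 0 members. In the paired fit 0, 3, 2 and 2 members had an unadjusted edgeR p under 0.05, against 18.7, 18.7, 20.4 and 11.9% of all genes. The median log2 fold change of the 8 tested members was 0.069 with shASXL2-2 and -0.10 with shASXL2-3, against 0.0066 and 0.014 over all genes tested. CBX2 had the most negative fold change and PCGF1 the most positive among members above 10 CPM. For shASXL2-3 the 95% intervals of CBX2 and PCGF1 lay on opposite sides of 0, as the plot of fold changes shows.

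**Figure D2:**
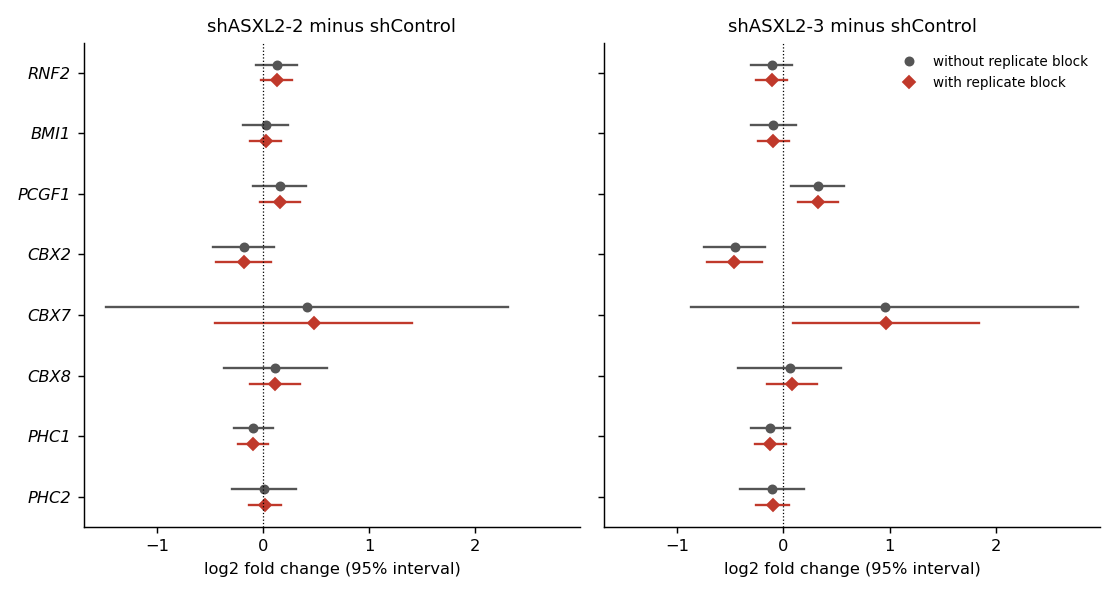
Log2 fold change of the 8 tested PRC1 genes against shControl, with 95% intervals, for shASXL2-2 (left) and shASXL2-3 (right), in fits without (grey circles) and with (red diamonds) the replicate number as a block. With shASXL2-3, CBX2 lies at -0.46 and PCGF1 at 0.32, and the interval of CBX7 is the widest.

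The overlap of single samples gave a finer picture than the calls. Between shASXL2-2 and shControl, the 3 samples of one group lay wholly to 1 side of the other for 2 members (RNF2 above, PHC1 below), against 14.9% of all genes tested. Between shASXL2-3 and shControl this held for 3 members (PCGF1 above, CBX2 and RNF2 below), against 10.1% of genes. Between the shRNAs it held for the same 3 members (PCGF1 higher and CBX2 and RNF2 lower with shASXL2-3), against 4.66% of genes. For no member did all 6 knockdown samples lie to 1 side of all 3 controls, against 2.61% of genes below and 2.16% above. Within same-numbered samples, CBX2 and PHC1 were below the control in 6 of 6 pairs, against 11.6% of all genes. PCGF1 was above it in 6 of 6 pairs, also against 11.6% of genes. CBX7 was above it in CPM in each pair too, but with 3 counts in both the control and the shASXL2-2 sample numbered 25. The shRNAs share their controls in these counts.

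Promoters are shown for PCGF1 and CBX7, both above the same-numbered control in CPM in every pair, with CBX7 close to the detection limit. Each is given as the 250 bases before the RefSeq start site on GRCh38.p14, 5′ to 3′, with CpG dinucleotides in capitals. PCGF1 lies at chr2:74507696-74507945 and CBX7 at chr22:39152681-39152930, both on the minus strand.
PCGF1: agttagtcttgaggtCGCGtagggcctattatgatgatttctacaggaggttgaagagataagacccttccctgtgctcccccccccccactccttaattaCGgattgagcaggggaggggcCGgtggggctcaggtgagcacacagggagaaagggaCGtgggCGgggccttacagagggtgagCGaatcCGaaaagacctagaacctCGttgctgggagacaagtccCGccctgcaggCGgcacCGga
CBX7: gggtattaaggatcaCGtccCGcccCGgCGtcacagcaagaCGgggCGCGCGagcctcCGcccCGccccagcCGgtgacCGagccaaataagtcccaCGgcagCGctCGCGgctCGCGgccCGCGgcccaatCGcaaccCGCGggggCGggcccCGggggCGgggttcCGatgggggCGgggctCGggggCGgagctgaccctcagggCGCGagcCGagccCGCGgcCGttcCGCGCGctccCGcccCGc
The PCGF1 window held 12 CpG and the CBX7 window 41, against a median of 11 over 35116 promoters of this length. An entry was found for 7 members, with 10 start sites in all. The CpG count was 34 for RNF2 and for RING1, 35 and 54 for the start sites of BMI1, 10 and 23 for PHC1, and 21 and 36 for PHC2. CBX2 and CBX8 had no entry. The letters TGTGGT, the core of the RUNX motif, were searched on both strands and were in 0 of the 10 member windows, against 11.0% of all promoters. With so few windows this is not read as a lack of RUNX sites, and no other form of the motif was searched.

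RNF2 (RING1B), the ligase of most PRC1, was the member whose shRNA groups lay to opposite sides of the controls. RNF2 lies on chromosome 1 at 185014658 to 185071735 (GRCh37, plus strand). In the order of the numbers 1, 13 and 25, which holds for all values below, the shControl samples had 38.0, 41.2 and 37.7 CPM of RNF2. Those of shASXL2-2 had 41.9, 44.1 and 41.6 CPM, and those of shASXL2-3 had 37.3, 36.8 and 34.0 CPM. All shASXL2-2 samples were above all controls, and all shASXL2-3 samples were below them. Against shControl the log2 fold changes were 0.13 (SE 0.09) and -0.11 (SE 0.09), and their 95% intervals, -0.065 to 0.32 and -0.31 to 0.081, included 0. Between the shRNAs the log2 difference was -0.24 (SE 0.09, edgeR unadjusted p 0.0200, adjusted p 0.998). The paired fit gave the same difference with an edgeR unadjusted p of 0.0042 and an adjusted p of 0.213. Without the shASXL2-3 sample numbered 1, the paired fit gave -0.28 (SE 0.07, edgeR adjusted p 0.0847).

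RING1 (RING1A), the paralogous ligase, gave almost no counts in any sample. It lies on chromosome 6 at 33176277 to 33180499 (GRCh37, plus strand), within the major histocompatibility complex. RING1 had 2, 4 and 3 counts in shControl, 1, 2 and 0 counts with shASXL2-2, and 1, 3 and 1 counts with shASXL2-3. No sample exceeded the 3-count limit by more than 1 count, so no fold change is given. Its neighbours on chromosome 6 were also low. Of the 20 nearest protein-coding genes, 10 on either side, 5 passed the filter, their median was 0.046 CPM and the highest, BRD2, reached 3.54 CPM. RPS18, a ribosomal protein gene 63.6 kb from RING1, had 1 to 4 counts per sample, against a median of 895 CPM over 79 other ribosomal protein genes. Windows of 21 neighbouring protein-coding genes held a median of 14 that passed the filter, against 5 in the window on RING1. Around each of the other 8 members the highest neighbour reached at least 70.1 CPM. What sets the low counts of this stretch was not tested, and the RING1 counts are not read here as a lack of RING1 mRNA.

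**Figure D3:**
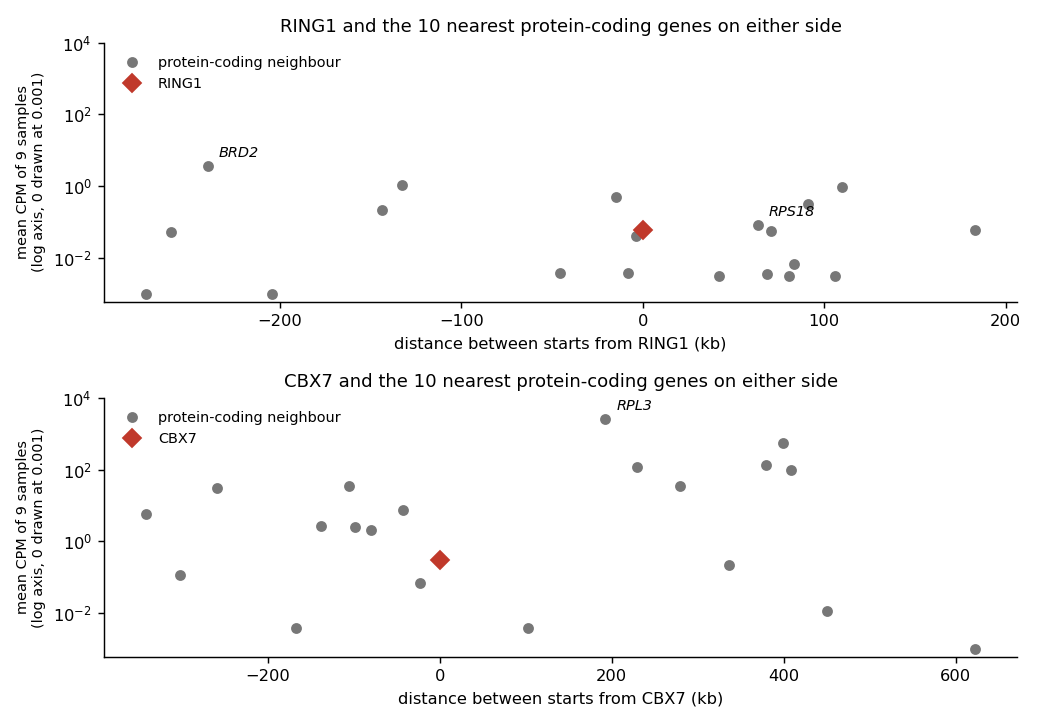
Mean level over 9 samples, in CPM on a log axis, of RING1 (top) and CBX7 (bottom) and of the 10 nearest protein-coding genes on either side, against the distance between gene starts in kb. All 20 neighbours of RING1, RPS18 included, lie at or below 3.54 CPM, whereas the neighbours of CBX7 reach 2557 CPM at RPL3.

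BMI1 (PCGF4), a PCGF subunit of canonical complexes, differed little between groups. BMI1 lies on chromosome 10 at 22610028 to 22620413 (GRCh37, plus strand). The shControl samples had 210.2, 233.0 and 209.8 CPM, those of shASXL2-2 had 217.2, 229.5 and 216.6 CPM, and those of shASXL2-3 had 187.1, 223.1 and 201.1 CPM. The groups overlapped, and in each group the sample numbered 13 was the highest. With shASXL2-2 the fold change was 0.023 ± 0.09 (log2, SE) at an edgeR adjusted p of 0.998, and with shASXL2-3 it was -0.095 ± 0.09 at 0.976. In the paired fit the 95% intervals were -0.12 to 0.17 and -0.24 to 0.047. BMI1 shares exons with the readthrough transcript COMMD3-BMI1, and the BMI1 row held 78.7 to 84.8% as many counts as the readthrough row, so BMI1 and readthrough RNA cannot be told apart here.

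PCGF1 (NSPC1), which pairs with BCOR and KDM2B in a variant complex, had higher values with both shRNAs and did not pass the threshold. It lies on chromosome 2 at 74732170 to 74734822 (GRCh37, minus strand), and its promoter is the CpG-poorer of the pair shown. In the annotation 49 bases overlap LBX2-AS1 on the opposite strand, which had 0.467 to 1.57 CPM. PCGF1 was at 14.7, 14.1 and 14.0 CPM in shControl. The samples of shASXL2-2 had 16.9, 14.4 and 16.6 CPM, and those of shASXL2-3 had 19.0, 16.9 and 17.8 CPM. All shASXL2-3 samples lay above the controls, and the shASXL2-2 sample numbered 13 lay between controls. With shASXL2-2 the fold change was 0.16 ± 0.11 (log2, SE). With shASXL2-3 it was 0.32 ± 0.11, at an edgeR unadjusted p of 0.0162 and an adjusted p of 0.967. The paired fit gave 0.16 (SE 0.09) and 0.32 (SE 0.08, edgeR unadjusted p 0.0031, adjusted p 0.109). For both shRNAs averaged it was 0.24 (SE 0.10, edgeR adjusted p 0.741), with an adjusted p of 0.119 in the paired fit. Without the shASXL2-3 sample numbered 1, the shASXL2-3 value was 0.27 (SE 0.12, edgeR adjusted p 0.658). The paired fit without that sample gave 0.31 (SE 0.09, edgeR adjusted p 0.0966). With a length and GC correction the paired values of all 9 samples were smaller. They were 0.077 (SE 0.08) with shASXL2-2 and 0.24 (SE 0.08, edgeR adjusted p 0.205) with shASXL2-3. For both averaged the corrected value was 0.16 (SE 0.07, edgeR adjusted p 0.318). Of the per-length signal of the 6 PCGF genes, PCGF1 made up 14.3 ± 0.81% (SD, n = 3) of that of the controls, 15.4 ± 1.56% of that of shASXL2-2 and 18.0 ± 1.93% of that of shASXL2-3. BMI1, with any readthrough RNA included, held 55.5 ± 1.05%, 54.6 ± 1.63% and 52.3 ± 2.19% of the same signal.

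CBX2, a canonical reader of methylated histone H3 with chromatin-compacting activity, had the most negative fold change of the members. It lies on chromosome 17 at 77751947 to 77761782 (GRCh37, plus strand). CBX2 was at 116.0, 109.1 and 103.2 CPM in shControl. The samples of shASXL2-2 had 105.7, 92.3 and 91.2 CPM, and those of shASXL2-3 had 64.7, 83.6 and 90.2 CPM. The shASXL2-3 samples all lay below the controls, and the shASXL2-2 sample numbered 1 lay between controls. These were 91.2, 84.5 and 88.3% of the same-numbered controls for shASXL2-2, and 55.8, 76.6 and 87.4% for shASXL2-3. With shASXL2-2 the fold change was -0.18 ± 0.13 (log2, SE; edgeR adjusted p 0.970). With shASXL2-3 it was -0.46 ± 0.13, at an edgeR unadjusted p of 0.0054 and an adjusted p of 0.930. Averaged over both it was -0.32 (SE 0.11, edgeR adjusted p 0.676). The paired fit gave -0.46 (SE 0.12, edgeR adjusted p 0.105) with shASXL2-3 and -0.32 (SE 0.10, edgeR adjusted p 0.119) for the mean.

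The CBX2 values depended on the shASXL2-3 sample numbered 1, the library that stood apart. Without it, the paired fit gave -0.28 (SE 0.07) with shASXL2-3, smaller in size but past the threshold at an edgeR adjusted p of 0.0454. For the mean of both shRNAs it gave -0.23 (SE 0.05, edgeR adjusted p 0.0172). The same fit called 1755 genes for the mean, against 156 with all 9 samples. This fit was added after the data were seen. Without a block and without that sample the edgeR adjusted p values were 0.628 and 0.355. DESeq2 with the block and all 9 samples also called CBX2, at adjusted p values of 0.0061 for shASXL2-3 and 0.0366 for the mean. In these contrasts it called 474 and 622 genes. With the block and no filter, edgeR gave CBX2 an adjusted p of 0.0216 for shASXL2-3 and 0.0553 for the mean, where 410 and 563 genes were called. Other paired fits of all 9 samples did not call it. A length and GC correction gave -0.41 (SE 0.13, edgeR adjusted p 0.208) with shASXL2-3. For the mean that correction gave -0.25 (SE 0.11, edgeR adjusted p 0.344), and with shASXL2-2 -0.093 (SE 0.13). Upper-quartile scaling and the mean over a gene's rows gave edgeR adjusted p values of 0.100 to 0.107 in these 2 contrasts, shASXL2-3 and the mean. A second CBX2 transcript in the table, NM_032647, held 6.8 to 10.4% of the counts of the main row. That row had a log2 fold change of -0.71 (SE 0.20) with shASXL2-3, and of -0.73 (SE 0.16, edgeR adjusted p 0.0708) in the paired fit.

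CBX8, a CBX paralogue 4149 bases from CBX2, was above the same-numbered control in 3 of 3 pairs with shASXL2-2 and in 1 of 3 with shASXL2-3. It lies at 77765931 to 77775482 on the minus strand of chromosome 17 (GRCh37). The shControl samples had 16.8, 13.6 and 10.4 CPM, those of shASXL2-2 had 18.5, 14.3 and 11.4 CPM, and those of shASXL2-3 had 16.1, 13.2 and 13.3 CPM. In each group the sample numbered 1 was the highest, and the groups overlapped. The fold change with shASXL2-2 was 0.12 ± 0.22 (log2, SE) and that with shASXL2-3 was 0.061 ± 0.22, at edgeR adjusted p values of 0.993 and 0.988.

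CBX7, the CBX protein known for stem cell maintenance, was close to the detection limit. It lies on chromosome 22 at 39516172 to 39548685 (GRCh37, minus strand), with the CpG-dense promoter shown. It had 14, 4 and 3 counts in shControl, 16, 7 and 3 counts with shASXL2-2, and 26, 5 and 6 counts with shASXL2-3. Only the samples numbered 1 exceeded 10 counts, and CBX7 passed the filter through them. The log2 fold changes of 0.42 (SE 0.84) and 0.95 (SE 0.81) had 95% intervals from -1.48 to 2.31 and from -0.87 to 2.77, and both included 0. In the paired fit the shASXL2-3 value was 0.96 (SE 0.40, edgeR unadjusted p 0.0338, adjusted p 0.230), with an interval from 0.089 to 1.84. Of its 20 nearest protein-coding genes 13 passed the filter, against 5 for RING1.

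PHC1, which joins PRC1 complexes through its sterile alpha motif, had slightly lower values with each shRNA and did not pass the threshold. It lies on chromosome 12 at 9066492 to 9094063 (GRCh37, plus strand). PHC1 was at 42.8, 44.3 and 46.0 CPM in shControl, at 40.4, 42.0 and 42.4 CPM in shASXL2-2, and at 39.2, 42.8 and 40.1 CPM in shASXL2-3. All shASXL2-2 samples lay below the controls, and the shASXL2-3 sample numbered 13 overlapped them. The fold change with shASXL2-2 was -0.095 ± 0.08 (log2, SE) and that with shASXL2-3 was -0.12 ± 0.08, at edgeR adjusted p values of 0.980 and 0.971. In the annotation the last 1105 bases of PHC1 overlap M6PR on the opposite strand. M6PR had 109.0 to 148.2 CPM, and in unstranded libraries, as the study's methods describe, the reads of that stretch cannot be assigned to 1 gene.

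PHC2, the polyhomeotic paralogue with the higher per-length level here, was called for the replicate number, as were 47.1% of all genes tested, and not for the shRNA. It lies on chromosome 1 at 33789224 to 33896696 (GRCh37, minus strand). PHC2 was at 64.1, 76.4 and 56.4 CPM in shControl, at 69.2, 70.7 and 58.3 CPM in shASXL2-2, and at 58.8, 68.5 and 55.6 CPM in shASXL2-3. The groups overlapped, and within each the samples ranked 13, 1 and 25 from high to low. Its log2 fold change was 0.0097 ± 0.14 (SE) for shASXL2-2 and -0.11 ± 0.14 for shASXL2-3, at edgeR adjusted p values of 0.998 and 0.981. A second PHC2 transcript held 99.2 to 100.2% as many counts as the main row. In the annotation 100 bases overlap MIR3605 on the same strand, which had 2.08 to 3.16 CPM.

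**Figure D4:**
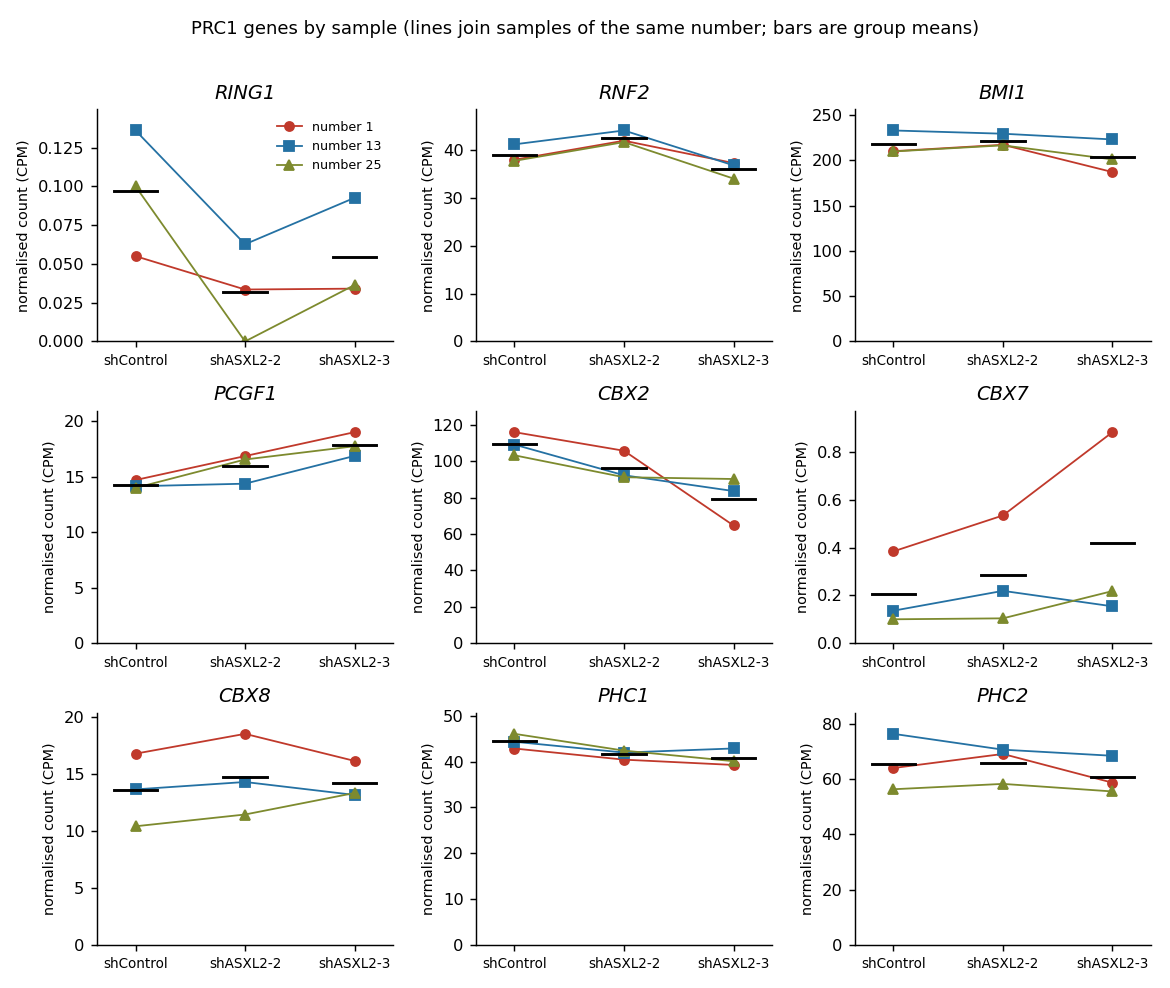
CPM of each PRC1 gene in every sample, with 1 panel per gene, a y axis from 0, lines joining samples of the same number and black bars for group means (n = 3). From shControl, CBX2 lies lower and PCGF1 higher along every line in both shRNA groups, while the line of number 1 is on top for CBX8 and that of number 13 for PHC2.

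CBX8 and PHC2 differed with the replicate number. CBX7 is left out of these tests, since it passed the filter through the samples numbered 1, where it had 14, 16 and 26 counts against 3 to 7 in the others. In the paired fit, edgeR's test for the number called 2 of the other 7 members, against 47.1% of all genes tested, a share no higher than the background. The samples numbered 1 differed from those numbered 13 and 25 in 46.3% of genes and in 1 of the 7 members. CBX8 was 0.44 higher there on the log2 scale (SE 0.09, edgeR adjusted p 0.0036). Between the numbers 25 and 13, 5.87% of genes and 1 of the 7 members differed, PHC2, by -0.34 ± 0.07 (log2, SE) at an edgeR adjusted p of 0.0208. CBX2 and PCGF1 had edgeR adjusted p values of 0.983 and 0.309 for the number. The labels do not say what the numbers stand for.

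**Figure D5:**
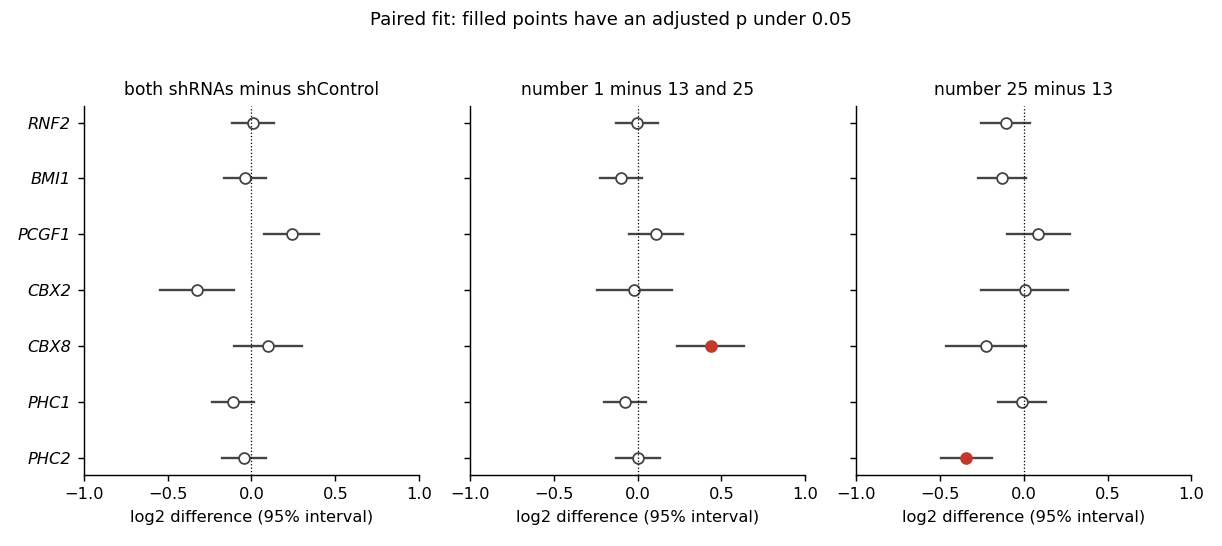
Log2 differences of 7 PRC1 genes in the paired fit (CBX7 and RING1 left out), with 95% intervals, for both shRNAs averaged (left), the samples numbered 1 (middle) and number 25 against 13 (right). Filled points mark CBX8 in the middle panel at 0.44 and PHC2 in the right panel at -0.34, the values with an adjusted p under 0.05, and no point is filled on the left.

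The rest of the PRC1 system was read through 36 genes in 4 lists, of which 32 were tested. In either fit, 0 of the 32 passed the threshold in a shRNA contrast, and the lowest edgeR adjusted p was 0.063, for BCORL1 in the paired fit. Of the 7 other canonical subunits 6 were tested. SCMH1 had the highest level (29.8 CPM per kilobase in shControl), and PCGF2 (0.87) and SCML1 (0 counts in every sample, which allows up to 0.109 CPM) had the lowest. Of the 16 variant subunits, DCAF7 (62.7 CPM per kilobase) and FBRSL1 (33.9) were highest and YAF2 (3.15) and AUTS2 (0.21) lowest. All 4 deubiquitinases of histone H2A were tested, with BAP1 (46.1 CPM per kilobase) and USP16 (26.7) highest and MYSM1 (9.87) and USP3 (7.80) lowest. Among 9 genes known as PRC1 targets, the cell-cycle inhibitor gene CDKN2A (23.9 CPM per kilobase) and GATA6 (3.04) were highest, and GATA4, SOX17 and HAND1 had 0 counts. For both shRNAs averaged, without the block, the median log2 fold changes of these lists were -0.025, -0.052, -0.0017 and 0.14 in this order, against 0.012 over all genes. An unadjusted edgeR p under 0.05 was reached there by 1, 2, 0 and 0 of their genes, against 6.63% of all genes tested. These were PHC3 (-0.24), MGA (-0.27) and BCORL1 (-0.32), of which PHC3 and MGA were chosen after their values were seen.

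With the replicate number, 15 of the 32 genes (46.9%) passed the threshold of edgeR's test, near the 47.1% of all genes. In the samples numbered 1, the variant subunits E2F6 (-0.61), L3MBTL2 (-0.57), PCGF6 (-0.45), USP7 (-0.26) and PCGF5 (-0.22) were lower on the log2 scale, as were the deubiquitinases USP16 (-0.31) and BAP1 (-0.21). KDM2B (-0.22) and SCMH1 (-0.17) were also lower there, and these did not pass the overall test for the number. BCORL1 (0.27) and the target gene CDKN1C (1.54) were higher. Number 25 exceeded number 13 by 0.73 for CBX6 and by 0.67 for GATA6 on that scale, and was lower for RYBP (-0.32) and BCOR (-0.39). PCGF2 and USP3 passed the overall test for the number and neither of these contrasts.

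Across the 9 samples, the gene whose centred log2 CPM lay closest to that of each tested member was sought among genes that varied at least as much. The root mean square difference was 0.031 for BMI1 and IP6K1, 0.036 for PHC1 and KANSL3, and 0.035 for PHC2 and ZNF92. It was 0.059 for RNF2 and FZD1, 0.060 for PCGF1 and RBMX2, and 0.071 for CBX8 and PIGV. CBX2 and HGSNAT differed by 0.11, and CBX7 and ERVFRD-1 by 0.20. These are descriptions over 9 samples that share their groups and numbers.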

How the data were processed

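RNA-seq counts of 9 SKNO-1 samples were analysed. The deposited values are raw counts per RefSeq transcript on hg19, and the submitters' processing notes name STAR, featureCounts and DESeq2 without versions or roles. Libraries were poly(A)-selected and made without strand information, according to the paper's methods. The extraction text in the labels describes sorted marrow cells, so the cell line was taken from the other labels. Rows of 1 gene can share reads, so each symbol was represented by its row with the highest total.

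In R 4.3.3, edgeR 4.0.16 (quasi-likelihood F test, TMM, filterByExpr with a minimum count of 10 and total of 15) fitted all 9 samples with 1 coefficient per group. P values were adjusted by Benjamini-Hochberg over all genes, with a threshold of 0.05. The paired fit added the replicate number as a block. The numbers come from the labels. Deviations from the group means correlated at 0.398 to 0.731 over the 9 same-numbered pairs, with a mean of 0.598, so the numbers were taken to pair the samples. The mean over 18 other pairs was -0.291. Deviations within a group cancel out, so this negative mean follows from the positive one and adds no separate evidence. DESeq2 1.42.0, upper-quartile scaling, no filter, mean rows, a length and GC correction and leaving out samples or numbers were alternatives. Fits were tested on simulated data that held no effect of the replicate number. That test cannot show how the fit without the block does on these samples. The 3-count limits cover counting error only, since reads carry no molecular identifiers, whereas the 95% intervals of fold changes rest on the spread between samples.

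Levels per kilobase used canonical transcript lengths of GENCODE v44 on GRCh37, and promoters came from RefSeq on GRCh38.p14. The PRC1 genes and the lists were chosen with earlier results of these data known. Named genes were all members, ASXL2, overlapping rows, listed genes past the threshold in either fit, the 2 highest and 2 lowest of each list by level, and the gene most like each member. Values of 1 listed gene that this rule would name, and a share that needs it, are not reported here.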

Additional observations from a re-analysis of the deposited data

Results flagged for a closer look

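RNF2 was picked out because every shASXL2-2 sample lay above its same-numbered control and every shASXL2-3 sample below it. Without the block, the log2 difference between the shRNAs was -0.24 (SE 0.09), at an edgeR unadjusted p of 0.0200 and an adjusted p of 0.998. The paired fit put it at -0.24 (SE 0.07), at an edgeR unadjusted p of 0.0042 and an adjusted p of 0.213. RNF2 was chosen from these same values, so the unadjusted p values do not allow for that choice and add no support. The share of all genes with this pattern was not counted. The groups share their controls, and over the 35 alternatives, which reuse the same samples, the difference lay between -0.28 and -0.20.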

How the results depend on the processing

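Of 36 log2 fold changes, those of the 8 tested members and ASXL2 in 4 contrasts, 20 kept their sign in every alternative, including all of CBX2 and PCGF1. CBX2 was the member called for a shRNA in any setting. With shASXL2-3, 1 member was called by DESeq2 with the replicate block and by edgeR with the block and no filter, and for the mean of both shRNAs 1 by DESeq2 with the block. With 1 sample or number left out, 0 to 1 members were called for shASXL2-3 and for the mean. The 1 came in the paired fit without the shASXL2-3 sample numbered 1, or without number 1. For the replicate number these fits called 1 to 3 members (1 without number 1 or 25). These counts include CBX7, which passed the filter through the samples numbered 1, so they are not read as a result about the members. With all 9 samples, 47.1% of all genes were called for the number. For shASXL2-2, shASXL2-3, the mean and the difference between shRNAs, all-gene calls were 0 without the block by edgeR, 40, 59, 156 and 15 with it, 374, 474, 622 and 152 by DESeq2 with it, 307, 410, 563 and 162 with it and no filter, 15, 51, 81 and 11 with it and upper-quartile scaling, 4, 51, 81 and 10 with it and mean rows, 37, 94, 155 and 9 with it on the genes with a known length, and 4, 12, 22 and 6 on the same genes with a length and GC correction. Leaving out samples gave 0 to 2 calls without the block and 0 to 1755 with it, and the 1755 came without the shASXL2-3 sample numbered 1. With length and GC correction and the block, 3 signs turned, PHC1 with shASXL2-2 to 0.0048, PHC2 for the mean to 0.011 and RNF2 for the mean to -0.043. Leaving out samples turned signs within these ranges. With shASXL2-2 they were -0.0057 to 0.075 for BMI1, -0.38 to 1.25 for CBX7, -0.081 to 0.30 for CBX8 and -0.088 to 0.13 for PHC2. With shASXL2-3 they were -0.22 to 1.79 for CBX7, -0.094 to 0.24 for CBX8 and -0.20 to 0.018 for PHC2. For the mean they were -0.072 to 0.016 for BMI1, -0.018 to 0.050 for RNF2, -0.071 to 0.27 for CBX8 and -0.14 to 0.076 for PHC2. For shASXL2-3 against shASXL2-2 they were -0.62 to 1.33 for CBX7, -0.19 to 0.14 for CBX8, -0.066 to 0.0092 for PHC1 and -0.29 to 0.033 for ASXL2. The causes were not tested. Fits restricted to genes with a length, paired fits of the other scalings and paired fits without 1 sample were chosen after seeing the data. CBX7 was filtered out and could not be fitted in 2 settings. Depth limits RING1 and CBX7, which had at most 4 and 26 counts in a sample.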
